A study of Rattus norvegicus with 20 samples.

Results

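The ventral and the dorsal subiculum of control rats were compared across all genes. The comparison used 10 of the 20 libraries of the series, 5 from ventral and 5 from dorsal controls, chosen by the region and treatment in their labels. All animals were wild-type Wistar rats aged 3 months. The controls carried the treatment label control, and what was done to them is not given in the sources used here. The other 10 libraries came from dorsal and ventral subiculum 24 hours after a preconditioning protocol, which the series title describes as acute seizures evoked by electrical stimulation of the perforant pathway. They are used below as separate libraries in which the regional difference was measured again. Tissue was cut from frozen sections by laser microdissection, so each library is bulk RNA from a mixture of neurons, glia and vessels. In such samples fewer cells of a type and less RNA per cell cannot be told apart.

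The subiculum is the main output station of the hippocampus. It receives the axons of CA1 pyramidal cells and sends its own to cortex, thalamus and hypothalamus. Its dorsal part is known for connections that serve spatial memory and navigation, and its ventral part for connections with amygdala, hypothalamus and nucleus accumbens that serve stress, emotion and motivation. Pyramidal cells are known to differ in gene expression along this axis.

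The deposited table identifies genes by Ensembl rat IDs. The reference table of 47357 rat genes used here held no Ensembl IDs, so 0 of the 32883 IDs could be matched to it. The labelled tissue could therefore not be checked against its marker genes, and no pathway or cell type can be named for any gene here. Results are given for the regions, for groups of genes defined by level and size of difference, and for 4 genes by ID.

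Each control library held between 3087146 and 20463678 counts. Totals averaged 13446683 ± 4741166 in dorsal and 10305903 ± 6588520 in ventral controls (SD, n = 5 each). A two-sided exact permutation test without pairing found no difference in the totals (p = 0.405, 0.561 after Benjamini-Hochberg adjustment over 4 library measures). The smallest library was ventral control 1 and the largest ventral control 4. Libraries of one region correlated at 0.959 to 0.985 in the dorsal and 0.954 to 0.987 in the ventral group (Pearson r across genes of log2 CPM, counts scaled to library size with the TMM factors of edgeR). All pairs of libraries within a group differed by more than sampling noise, with a chi-square per degree of freedom of at least 3.37. The labels do not say that the libraries came from separate animals, so the p-values below measure the spread between these libraries.

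No difference between the regions was found in the number of genes expressed. Before any correction for depth, between 16545 and 17778 gene IDs had at least 1 count in dorsal and between 15632 and 18193 in ventral controls. With every library thinned to 3087146 counts, dorsal libraries had 15486 ± 124 genes detected and ventral libraries 15520 ± 216 (SD, n = 5 each). The difference was smaller than the spread between libraries of one region (two-sided unpaired exact permutation p = 0.746, 0.746 after adjustment). The most abundant gene of a library took 1.87% to 2.98% of the counts in dorsal and 1.54% to 2.53% in ventral controls. It took the smaller share on the ventral side in all 5 same-numbered pairs (0 of 5 higher). The exact permutation test, which ignored the pairs, did not pass (p = 0.0556, 0.222 after adjustment).

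Region was the main axis on which the 10 libraries differed. The first principal component of log2 CPM held 52.7% of the variance. The dorsal libraries lay between -56.0 and -21.3 on it and the ventral libraries between 31.6 and 46.9, so the regions did not overlap. The second component held 13.5% and was led by dorsal control 4, at 38.2, and ventral control 2, at 37.3, with the other libraries between -20.3 and 6.84. Of the variance summed over genes, region accounted for 50% with 1 degree of freedom, the replicate number for 32.9% with 4, and the remainder for 17.1% with 4. For single genes the median share of a gene's variance was 25.5% for region and 44.7% for the replicate number. The replicate number has 4 degrees of freedom against 1 for region, so its larger median does not rank it above region.

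How far each control library lay toward its own region was read from genes tested in both conditions whose regional difference had been called in other libraries. These were the 404 genes on the ventral side and the 676 on the dorsal side, at least 2-fold and called, in the preconditioned libraries. The score was the mean log2 level of the first set minus that of the second. The dorsal controls scored -1.34, -1.80, -0.81, -1.58 and -1.35, in order of replicate number. The ventral controls scored 1.90, 1.97, 1.89, 1.65 and 1.93. The regions were far apart, and within them dorsal control 3 and ventral control 4 lay nearest to the other region.

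**Figure D1:**
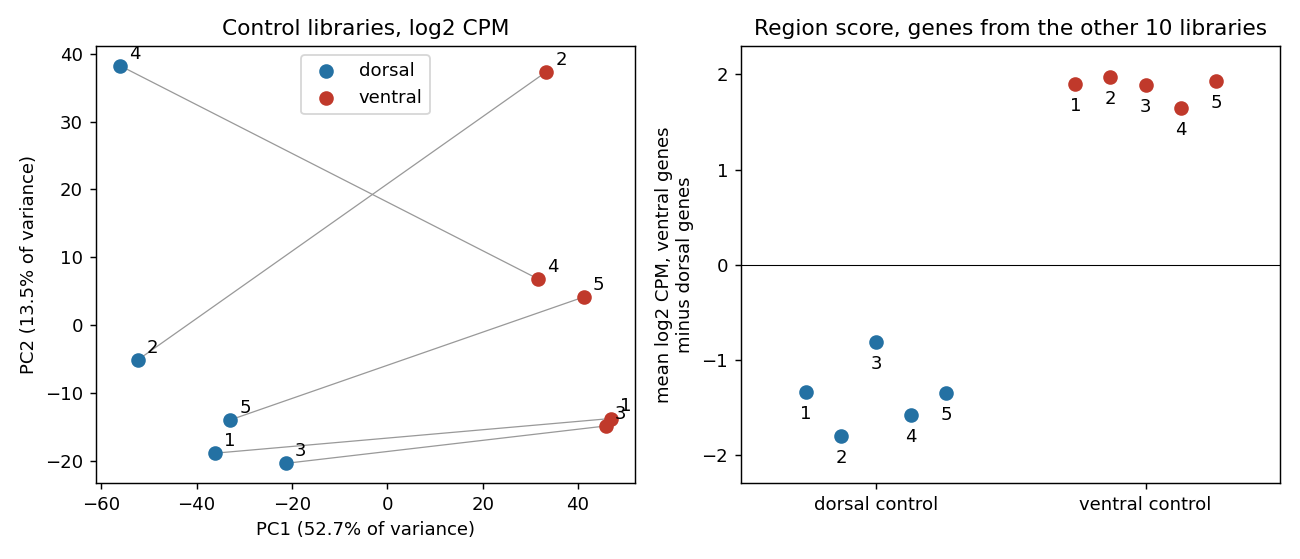
Left, the 10 control libraries on the first and second principal components of log2 CPM, with lines joining libraries of the same number; dorsal libraries lie between -56.0 and -21.3 and ventral libraries between 31.6 and 46.9 on the first. Right, the region score (mean log2 CPM of ventral genes minus that of dorsal genes, genes chosen in the preconditioned libraries) of each library, labelled by number; dorsal control 3 at -0.81 and ventral control 4 at 1.65 lie nearest to the other region.

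In a fit that did not pair the libraries, the ventral and dorsal subiculum differed in the expression of about 1 gene in every 4 tested. Genes were called at an adjusted p-value under 0.05 in edgeR's quasi-likelihood test. Later calls come from such unpaired fits unless stated. Of 13509 genes tested, 25.7% were called, 11.2% (1511 genes) with more expression in the ventral and 14.5% (1961 genes) with more in the dorsal region. The scaling centres the bulk of the genes, and the median log2 fold change of all genes tested was 0.02, so differences are relative to that bulk. Without dorsal control 4 and ventral control 2, the libraries that led the second component, 4458 genes were called, and without dorsal control 3 and ventral control 4 there were 2839.

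Same-numbered dorsal and ventral controls deviated together from the means of their groups, with r from 0.227 to 0.399 across genes in the 5 pairs, while the highest r between libraries of different number was 0.182. With the replicate number as a block, 36.4% of the genes tested were called, 2381 of them ventral (17.6%) and 2536 dorsal (18.8%). The block kept 3461 of the genes called without it. It added 1456 genes, 873 ventral and 583 dorsal. The added differences were small, with a median size of 0.43 on the log2 scale against 0.84 for the genes called without the block. The larger number of dorsal genes in the fit without pairs thus shrank to a nearly even split, from 43.5% to 48.4% of calls higher in the ventral region.

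The called genes had their direction in nearly every pair of libraries. All 5 pairs had the called direction for 3317 of the called genes, and 4 of 5 pairs had it for the other 155. The genes were called on these same libraries, so the agreement describes them and tests nothing. For the 2366 called genes whose ranges did not overlap, 5 of 5 pairs was fixed in advance. Over all genes tested, 41.8% had one direction in all 5 pairs, 2834 (21.0%) with the ventral library higher and 2813 (20.8%) with the dorsal library higher. The ranges of the regions did not overlap for 18.9% of genes, with 1168 ventral genes (8.65%) and 1389 dorsal genes (10.3%). The pairs differed in how many genes were at least 2-fold apart. In pair 4, 1609 genes were at least 2-fold higher in the ventral library and 871 in the dorsal library. In the other pairs the ventral library was higher for 608 to 901 genes and the dorsal library for 884 to 1266. Pair 4 holds dorsal control 4, which stood apart on the second component. The part of that library in the pair's count was not tested.

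Most regional differences were below 2-fold, and those of 4-fold or more were more often ventral. Of the called genes, 1358 reached a 2-fold difference, or 10.1% of those tested. They comprised 552 ventral (4.09%) and 806 dorsal genes (5.97%). At 4-fold or more there were 167 ventral and 120 dorsal genes. At 8-fold or more there were 63 ventral and 34 dorsal genes, and at 16-fold or more 24 and 11. Dorsal genes were thus the more numerous between 2-fold and 4-fold (686 against 385), and ventral genes the more numerous above. No test of this difference in shape was made, and the fitted folds at the top rest in part on genes near 0 counts in one region.

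**Figure D2:**
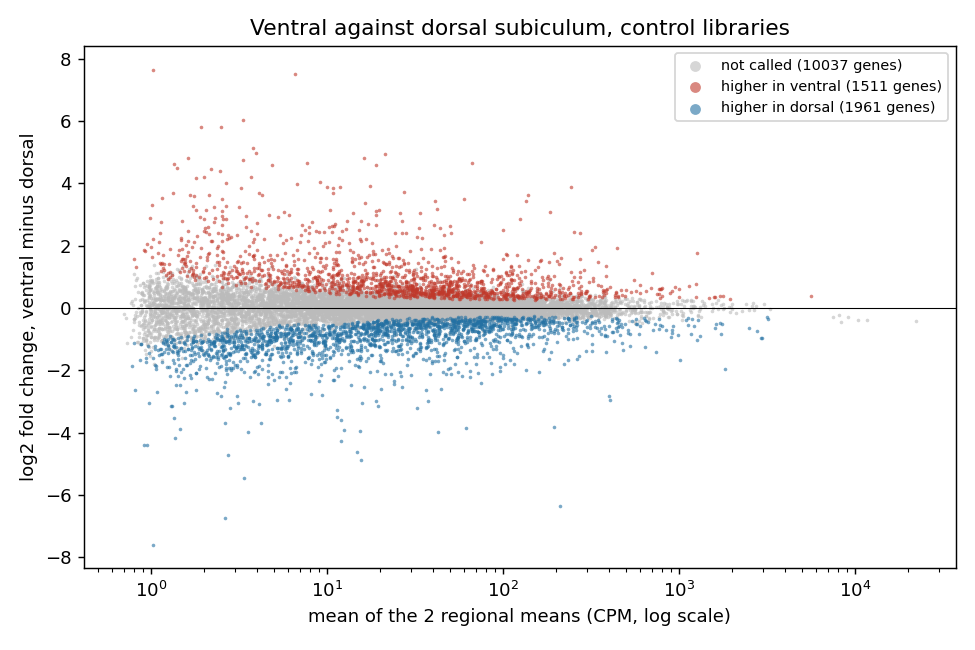
Each point is 1 of the 13509 genes tested, with its mean level in control libraries in CPM (log scale) on the horizontal axis and its log2 fold change, ventral minus dorsal, on the vertical axis. The 1511 genes called higher in ventral (red) and the 1961 called higher in dorsal subiculum (blue) are found at all levels, with larger differences among genes of low level.

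Regional genes were found at every level of expression. When the genes were split by mean level into 4 classes of equal size, 26.9%, 25.6%, 24.2% and 26.1% were called, from the lowest class to the highest. The size of the called differences fell with level. Their median was 1.26 on the log2 scale in the lowest class, 0.88 and 0.65 in the middle classes and 0.56 in the highest. The median standard error of a log2 fold change fell as well, from 0.32 in the lowest class to 0.12 in the highest, so smaller differences could be called in abundant genes. The excess of dorsal calls was widest in the lowest class, with 580 dorsal and 329 ventral genes. In the third class the numbers were 407 and 411. The lowest class spans mean levels of 0.70 to 7.03 CPM, where 3 counts are worth 0.147 CPM in the deepest and 0.972 CPM in the shallowest library, both of them ventral.

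The share of all RNA counts that came from regional genes differed between the regions. Genes called higher in the ventral region took 13.9% to 15.2% of the counts in ventral and 7.98% to 10.2% in dorsal controls. Genes called higher in the dorsal region took 17.9% to 19.8% in dorsal and 11.5% to 12.1% in ventral controls. The highest ventral share among dorsal libraries and the lowest dorsal share, 10.2% and 17.9%, were both those of dorsal control 3. The genes were chosen on these libraries, so the shares describe them and test nothing.

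Few genes were restricted to one region at this depth. Of the called genes, 7 had at most 3 counts in every dorsal control, with ventral means of 2.04 to 13 CPM. Another 4 had at most 3 counts in every ventral control, with dorsal means of 1.78 to 5.25 CPM. In each set 1 gene had 0 counts in all libraries of the other region. Other called genes were detected above that floor in at least 1 library of the lower region.

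The genes with the largest differences were taken from those with a mean count of at least 50 and no overlap between the regions, 2 for each direction. ENSRNOG00000007552 was near 0 in the dorsal subiculum. Its level was 0.0514, 0, 0.216, 0 and 0 CPM in dorsal controls 1 to 5, which is at most 3 counts per library. In ventral controls 1 to 5 it was 11.4, 16.4, 15.6, 7.85 and 13.8 CPM. Every ventral library was far above every dorsal one, and the ventral mean of 13 ± 3.45 CPM (SD, n = 5) was at least 51.0-fold higher than 3 counts per dorsal library (adjusted p = 1.99e-07, edgeR).

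ENSRNOG00000025587 was low but present in the dorsal subiculum. It measured 0.873, 0.531, 3.38, 0.105 and 1.33 CPM in dorsal controls 1 to 5, and 36.5, 36.1, 67.6, 35.0 and 33.0 CPM in ventral controls 1 to 5. The highest dorsal level was in dorsal control 3 and the highest ventral level in ventral control 3, with the other ventral libraries at 36.5 CPM or less. The log2 fold change was 4.95 (SE 0.45, adjusted p = 3.36e-06, edgeR). With single libraries left out it ranged from 4.71 (dorsal control 4) to 5.70 (dorsal control 3).

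ENSRNOG00000004179 was abundant in the dorsal subiculum. It measured 360, 594, 210, 437 and 473 CPM in dorsal controls 1 to 5, the lowest in dorsal control 3. In ventral controls 1 to 5 it measured 0, 0.41, 2.83, 15.1 and 1.09 CPM. The regions did not overlap, but the ventral libraries spread widely, from 0 counts in ventral control 1 to 320 counts in ventral control 4. The log2 fold change was -6.36 (SE 0.72, adjusted p = 2.97e-05, edgeR). With the replicate block it was -6.92 (adjusted p = 0.00484, edgeR). In the unpaired fit with single libraries left out, it ranged from -8.50 (ventral control 4) to -6.03 (ventral control 2).

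ENSRNOG00000005082 was also a dorsal gene. It measured 32.8, 44.1, 16.4, 31.7 and 26.8 CPM in dorsal controls 1 to 5, again lowest in dorsal control 3. In ventral controls 1 to 5 it measured 0.309, 0.615, 1.10, 1.80 and 0.504 CPM, again highest in ventral control 4. The log2 fold change was -4.87 (SE 0.36, adjusted p = 6.24e-07, edgeR). With single libraries left out it ranged from -5.53 (ventral control 4) to -4.68 (ventral control 5). Both dorsal genes were thus lowest in dorsal control 3 and highest in ventral control 4, the libraries whose region scores lay nearest to the other region. Both genes are themselves among the 676 dorsal genes of that score. What sets these libraries apart was not tested. Leaving out the lowest dorsal or the highest ventral value enlarges such a difference by construction. All 4 genes had the same direction in 5 of 5 pairs, which their choice for ranges without overlap had fixed in advance. Whether any of them shares reads with a near-identical copy was not assessed.

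**Figure D3:**
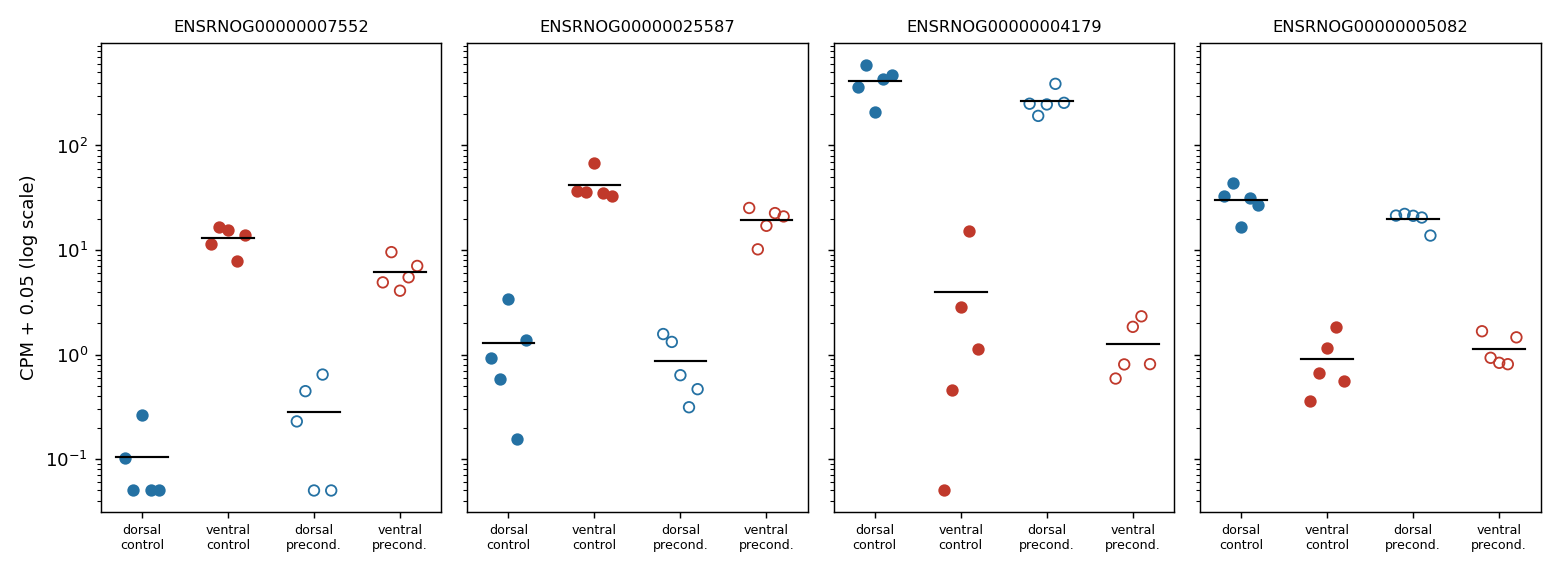
Level of the 4 genes in each library, in CPM with 0.05 added (log scale), by region and condition; filled points are control libraries, open points preconditioned libraries, bars group means. In all 4 genes the dorsal (blue) and ventral (red) points do not overlap within a condition, which in controls was required for their choice.

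The regional differences seen in controls were measured again in the preconditioned libraries, which share no library with the controls. Their columns carry a letter other than that of the sample titles, and matching them by number and region assumes that both letters stand for preconditioning. Of the genes tested in both conditions, 26.7% were called there. For genes called higher in ventral controls, 1450 of 1491 had the same sign and 990 (66.4%) were called with it. For genes called higher in dorsal controls, 1901 of 1945 had the same sign and 1410 (72.5%) were called with it. The larger the difference in controls, the more often it was called again. Among genes with 1.41-fold to 2-fold differences the share was 61.7% for ventral and 71.5% for dorsal genes. It was 91.2% and 92.9% between 4-fold and 8-fold. At 16-fold or more all 30 genes that could be tested, 21 ventral and 9 dorsal, were called again with the same sign.

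The median estimated difference was smaller after preconditioning. Genes called in controls had a median size of 0.84 on the log2 scale in controls and of 0.64, in the same direction, in the preconditioned libraries. These genes had been selected in controls. Conversely, genes called in preconditioned libraries had a median of 0.72 there and of 0.71 in controls. Over all 13372 genes tested in both, with no selection by call, the median absolute difference was 0.27 in controls and 0.23 after preconditioning. The median standard error was larger in controls as well, at 0.17 against 0.14.

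The difference between the conditions was then tested directly, gene by gene, as an interaction over all 20 libraries. It passed for 0.0814% of the genes tested in controls, or 11 genes, of which 5 had been called between the regions in controls. An unadjusted p-value under 0.05 was found for 6.71% of all genes tested and for 13.9% of the 3472 called in controls, which had been selected on the control libraries of the same contrast. In 4 of the 5 genes the regional difference was smaller after preconditioning or turned round. The 5 genes called in both conditions with opposite signs were all higher in dorsal controls, by log2 fold changes of -1.23 to -0.49, and higher in the ventral region after preconditioning, by 0.51 to 0.80. The interaction passed for 2 of these 5. That fit ignored the pairs of libraries. With the replicate number within each condition as a block, the interaction passed for 61 genes (0.452%), among them the 11, and 40 of the 61 had been called in controls.

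The 4 genes kept their direction after preconditioning. In dorsal preconditioned libraries ENSRNOG00000007552 stood at 0.234 ± 0.259 CPM, against 6.16 ± 2.16 CPM in ventral ones (SD, n = 5 each). ENSRNOG00000025587 measured 0.811 ± 0.553 and 19.1 ± 5.85 CPM. ENSRNOG00000004179 measured 267 ± 73.0 and 1.22 ± 0.763 CPM, and its ventral libraries held no value like that of ventral control 4. ENSRNOG00000005082 measured 19.7 ± 3.41 and 1.09 ± 0.396 CPM. In all 4 the mean level in the higher region was lower in the preconditioned than in the control libraries, a difference not tested here. The genes had been chosen for large differences in controls, and CPM was scaled separately in each condition. No interaction passed for them, with adjusted p-values in edgeR from 0.403 to 0.952, or 0.184 to 0.778 with the block.

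**Figure D4:**
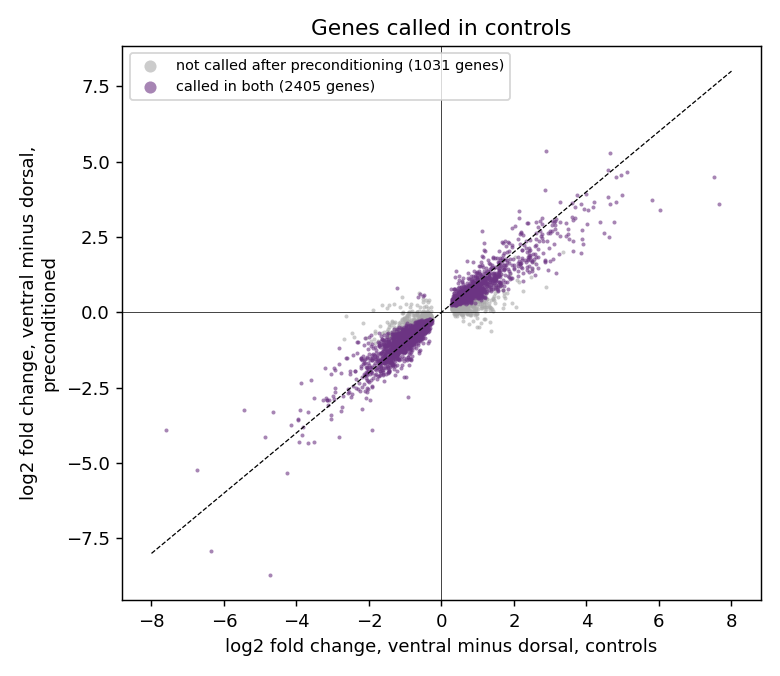
Log2 fold change, ventral minus dorsal, of each gene called in controls and tested in both conditions, in controls (horizontal axis) and in the preconditioned libraries (vertical axis); the dashed line marks equal differences. The 2405 genes also called after preconditioning (purple) extend in both directions, and 5 of them lie across the horizontal zero line. Over all genes shown, which were selected in controls, the median ratio of the preconditioned to the control difference was 0.782.

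The number of calls depended on the processing. No gene called in the edgeR fit was called with the opposite sign in any of the alternatives. Each alternative used all or most of the same control libraries, so such reversals were unlikely from the start. Of the 3472 genes called, 2430 stayed called with every single control library left out in turn, 1040 ventral and 1390 dorsal. Among genes with at least a 2-fold difference 87.1% did so, and among those with smaller differences 59%. Under 18 alternatives together, among them a stricter filter on low counts, 2011 genes (57.9%) stayed called. The shares were then alike, 58.5% of genes with at least a 2-fold difference and 57.5% of the others. A gene that an alternative did not test counted as not called, and the stricter filter tested only 11124 genes. The 18 did not include the thinned counts, which tested 11673 genes and kept 1528 of the 3472 calls. They also did not include the fit without dorsal control 3 and ventral control 4, which kept 2685. Under the 7 of these 18 alternatives other than the stricter filter and single libraries left out, 84.9% stayed called. The shares were then 92.8% of genes with at least a 2-fold difference and 79.8% of the others.

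**Figure D5:**
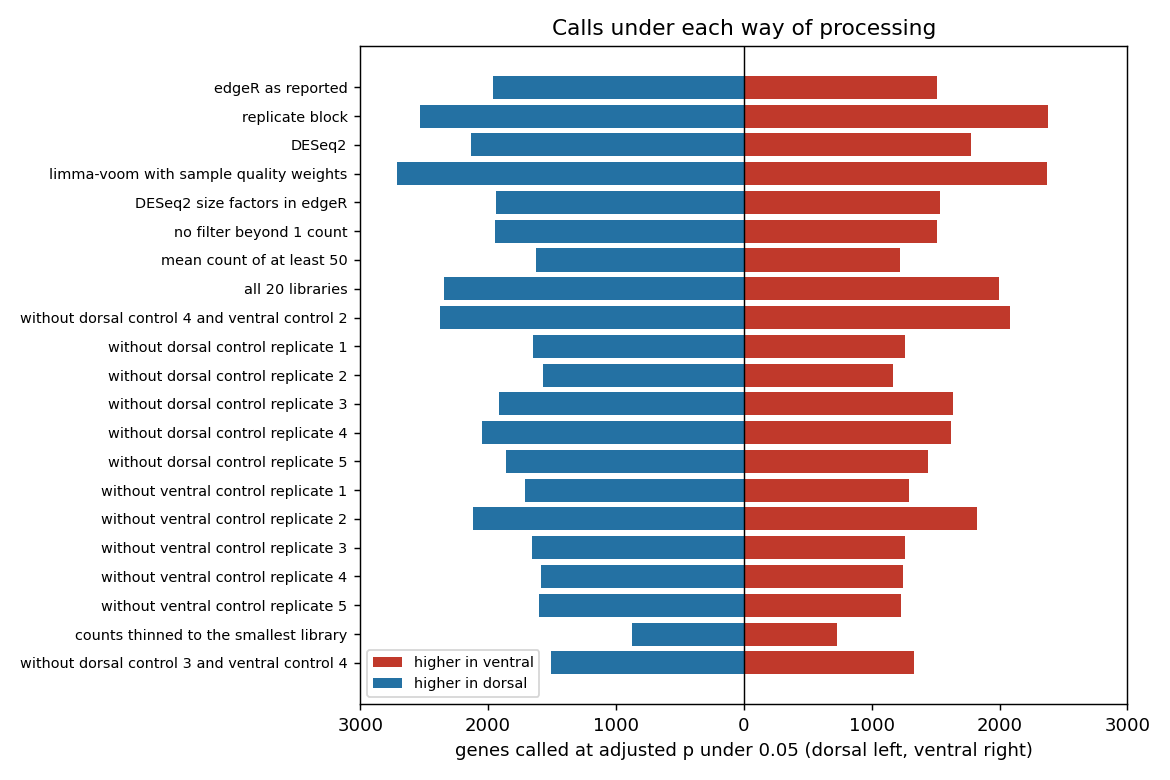
Number of genes called higher in the dorsal (blue, to the left) and in the ventral region (red, to the right) for the reported edgeR fit and each alternative way of processing. Bars start at 0; the dorsal bar is the longer one in all of them, and the bars are most nearly equal with the replicate block, at 2536 and 2381.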

How the data were processed

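Poly(A) RNA libraries (TruSeq Stranded mRNA LT) were made from Trizol-extracted RNA of microdissected tissue, per the labels. The authors deposited raw counts per gene for 20 libraries, with no normalization. STAR, DESeq2 and the build Rnor_5.0 are named without roles in the submitters' processing notes. The counting tool, annotation and use of strand are not given in the sources used here. The 10 control columns were mapped by sample title, and the 10 preconditioned ones by replicate number and region letter.

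Of 32883 IDs, 20574 had a count in controls and 13509 passed filterByExpr. edgeR 4.0.16 (R 4.3.3) was run with TMM scaling, robust quasi-likelihood F-tests and Benjamini-Hochberg adjustment on the 10 control libraries. The standard error is the log2 fold change divided by the square root of F. CPM uses TMM-adjusted library sizes, and log2 CPM has a prior count of 2.

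All 5 correlations between same-numbered controls exceeded 0.1 (mean r 0.339, one-sided exact permutation p = 0.00833, the smallest that 120 pairings give). The replicate block was therefore given as an alternative. The labels do not state shared animals, so the main fit was left unpaired.

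Named genes were the 2 per direction with the largest fold change among those called, with a mean count of at least 50 and ranges that did not overlap. The 28 gene lists drawn up by symbol could not be used, since the reference held no Ensembl IDs to match. Comparisons and lists were chosen with earlier results of these data known. Floors of 3 counts cover counting error only.

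Alternatives were the replicate block, DESeq2 1.42.0, limma-voom 3.58.1 with sample quality weights, DESeq2 size factors, other filters, all 20 libraries and libraries left out. Thinned counts, the block in the interaction fit, and leaving out dorsal control 3 with ventral control 4, were added after the data had been seen. Figures used matplotlib 3.10.9.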

Additional observations from a re-analysis of the deposited data

Results flagged for a closer look

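In 28 groups of 5 control values searched for a library far from the rest of its group, 5 held one. Independent groups would give about 1.4 by chance. These groups shared libraries and included genes picked for large differences, so the search cannot show an excess over chance. On the second principal component dorsal control 4 lay at 38.2, with the other dorsal controls between -20.3 and -5.07. On the third, ventral control 2 lay at 38.3, with the other ventral controls between -17.4 and -1.53. ENSRNOG00000007552 measured 0.216 CPM in dorsal control 3 (3 counts) and at most 0.0514 CPM (1 count) in the other dorsal controls. ENSRNOG00000025587 measured 67.6 CPM in ventral control 3 and 33.0 to 36.5 CPM in the other ventral controls. ENSRNOG00000004179 measured 15.1 CPM in ventral control 4 and at most 2.83 CPM in the other ventral controls.

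By the interaction test without the replicate block, the regional difference of 5 genes called in controls differed after preconditioning. Of these, 2 were higher in ventral and 3 in dorsal controls, with sizes of 0.38 to 1.44 on the log2 scale.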

How the results depend on the processing

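The number of genes called stayed within 1.5 times the reported 3472 in all alternatives except thinning, and the ventral share of calls lay between 42.7% and 48.4%. DESeq2 called 3915 genes, limma-voom with sample quality weights 5086, edgeR with DESeq2 size factors 3468, and the replicate block 4917. The ventral genes alone rose from 1511 to 2381 with the replicate block and to 2372 with weighted limma-voom. The interaction passed for 11 genes without and 61 with the replicate block, of which 5 and 40 had been called in controls. A mean count of at least 50 left 838 genes of at least 2-fold, with fewer genes tested. Thinning every library to the smallest one gave 1602 calls, 730 ventral and 872 dorsal, with 769 of at least 2-fold and 904 called in both conditions; depth therefore limits the count. Leaving out 1 dorsal control gave between 2736 and 3674 calls, and leaving out 1 ventral control between 2826 and 3941. The log2 fold changes of the 4 named genes kept their sign and stayed called in all 80 alternative fits. Their choice for large differences without overlap in these libraries made this likely in advance. The log2 fold change of ENSRNOG00000004179 ranged from -8.67 to -5.97. With the replicate block, no named gene lost its call. The adjusted p-value of ENSRNOG00000004179 rose from 2.97e-05 to 0.00484 (edgeR), and those of the other named genes fell.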
